A study of Homo sapiens with 2 samples.

Results

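Matrix metalloproteinases (MMPs) and their tissue inhibitors (TIMPs) were followed as 10 genes, MMP1, MMP2, MMP3, MMP7, MMP9, MMP10, MMP14, TIMP1, TIMP2 and TIMP3, chosen by symbol from the 36601 genes listed in the count matrices, and each symbol matched 1 row. The cells came from colon organoids, three-dimensional cultures grown in Matrigel and differentiated from the human iPS cell line 1383D6 (an established line reprogrammed to pluripotency), and the series was set up to model ulcerative colitis. Both groups were first taken through activin A and then FGF2, and their colonic medium held, up to where the protocol text breaks off at A-83, EGF at 20 ng/mL, the adenylyl cyclase activator forskolin at 30 µM, the MEK inhibitor PD98059 at 20 µM and the DNA methylation inhibitor 5-aza-2'-deoxycytidine at 5 µM. The control group (CNT) got no cytokine, and the 3CK group got TNF-α, IFN-γ and IL-1β together for 8 days, at doses not given in the sources used here. Each group was 1 single-cell library made with 10x Genomics v3.1 droplet reagents, which read transcript 3' ends, from about 8300 loaded cells of 1 cell line, so no difference below has a replicate check and no p-value is given. All intervals are 95% intervals of the counting error alone.

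MMPs are zinc-dependent proteases that cut extracellular matrix and cell-surface proteins. They are made as inactive zymogens, and TIMPs bind their active sites and block them. In the inflamed gut, MMPs from epithelial and stromal cells are known for matrix breakdown and mucosal repair, and many MMP promoters carry AP-1 sites. Transcript counts say nothing of zymogen activation or enzyme activity.

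After filtering, 2487 CNT cells with 101831571 UMIs (unique molecular identifiers, each standing for 1 captured transcript) and 1398 3CK cells with 91860414 UMIs remained, and no barcode was shared by the libraries. The median depth was 28911 UMIs per cell in CNT and 62746 in 3CK. Epithelial cells were those with at least 2 EPCAM UMIs per 10000, and mesenchymal cells those with at least 5 UMIs per 10000 of COL1A1, COL1A2 and COL3A1 together and under 1 of EPCAM. CNT held 1660 epithelial, 574 mesenchymal and 253 other cells, and 3CK held 1016, 124 and 258. The mesenchymal class carried its markers, with 1210 and 1208 CPM (UMIs per 1000000 UMIs of the same cells) of DCN in CNT and 3CK and only 20.5 and 17.2 CPM of EPCAM, but it also held KRT8 at 3217 and 4023 CPM, beside 3111 and 7117 CPM in epithelial cells, and KRT19 at 762 and 622 CPM, beside 2328 and 2054 CPM. Collagens differed between the libraries in the mesenchymal class itself, COL1A1 being at 3010 CPM in CNT against 906 CPM in 3CK, so this class was drawn on genes that differed between the libraries. Other markers were not level there either. LUM was at 1279 and 540 CPM in CNT and 3CK, PDGFRA at 76.4 and 34.8 CPM, and PRRX1 at 28.9 and 97.5 CPM. In the epithelial class the intestinal factor CDX2 was at 80.6 and 83.3 CPM, but other intestinal markers were not level. All 7 enterocyte markers were lower in 3CK. Their sum was 6395 (CNT) and 2082 CPM (3CK), most of it APOA4. FABP1 went from 1007 to 139 CPM, FABP2 from 184 to 19.1 CPM and VIL1, another epithelial marker, from 130 to 29.3 CPM. In the same class 6 hepatic markers summed to 97702 and 32109 CPM, most of it TTR. Cells of the labelled colon epithelium thus carried hepatic genes as well. Of the epithelial cells, 497 in CNT and 49 in 3CK also passed the collagen threshold. The number of cells with EPCAM from 2 to 4 UMIs per 10000, just inside the epithelial threshold, was 168 in CNT and 150 in 3CK, and 87 and 83 lay just outside it, from 1 to 2. The collagen sum lay just inside its threshold, from 5 to 10, in 53 and 38 mesenchymal cells.

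Of the 10 genes, 4 lie in 1 cluster of 9 MMP genes on chromosome 11 (GRCh38, chr11:102520508-102955732), all on the minus strand, in the order MMP7, MMP20, MMP27, MMP8, MMP10, MMP1, MMP3, MMP12 and MMP13. MMP7 spans chr11:102520508-102530750, MMP10 chr11:102770502-102780628, MMP1 chr11:102789401-102798160 and MMP3 chr11:102835801-102843609. MMP2 is at chr16:55389700-55506691 on the plus strand, MMP9 at chr20:46008908-46016561 (plus), MMP14 at chr14:22836560-22849041 (plus), TIMP1 at chrX:47582408-47586789 (plus), TIMP2 at chr17:78852977-78925387 (minus) and TIMP3 at chr22:32801705-32863041 (plus). TIMP1 lies inside SYN1 and TIMP3 inside SYN3, each on the opposite strand. SYN1 was at 2.00 and 2.58 CPM and SYN3 at 8.85 and 5.19 CPM in CNT and 3CK, far below the inhibitor it overlaps. MMP3 and MMP10 share 59 stretches of 50 bases in their main transcripts, so a small part of their reads may not tell them apart, whereas the other members share none with the 19 family transcripts compared.

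The promoters of MMP7 and MMP10 are shown because these genes of 1 cluster had the highest and the lowest ratio between the libraries. RefSeq (GRCh38.p14) gave promoters for 5 of the 10 genes, MMP7, MMP10, MMP14, TIMP1 and TIMP3. Each line gives the 250 bases before the annotated start, read 5′ to 3′ on the minus strand, at chr11:102530748-102530997 for MMP7 and chr11:102780629-102780878 for MMP10, and capitals mark matches to the AP-1 motif TGAGTCA and to TATAAA.
MMP7: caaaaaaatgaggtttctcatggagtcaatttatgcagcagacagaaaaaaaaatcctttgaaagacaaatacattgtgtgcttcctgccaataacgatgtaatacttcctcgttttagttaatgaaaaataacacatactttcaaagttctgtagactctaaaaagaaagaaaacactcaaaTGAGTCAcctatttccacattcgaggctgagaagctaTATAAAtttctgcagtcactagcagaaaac
MMP10: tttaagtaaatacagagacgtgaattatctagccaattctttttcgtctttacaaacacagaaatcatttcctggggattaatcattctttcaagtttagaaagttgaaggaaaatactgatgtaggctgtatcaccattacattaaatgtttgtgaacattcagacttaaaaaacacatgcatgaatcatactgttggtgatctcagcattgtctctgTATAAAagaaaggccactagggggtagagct
The MMP7 promoter held 1 AP-1 match, starting 67 bases before the start, and TATAAA 30 bases before it. MMP10 held TATAAA 31 bases before the start and no match to TGAGTCA or its reverse TGACTCA. Over 35116 promoters of 300 bases (250 before to 50 after the start), 4.95% held the AP-1 motif on either strand and 7.33% held TATAAA on the gene's strand. The NF-kB motif (GGG and TTTCC parted by any 2 bases, on either strand) was found in 1.91% of them, and in 0 of these 5 genes. These are letter matches, not sites shown to be bound.

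Cytokine treatment went with a much higher MMP7, lower MMP1 and MMP10, and a higher MMP3 that rested on few cells. The 3 TIMPs and MMP14 stayed within 2-fold over all cells, and MMP2 lay near that line. A gene was called where its CPM differed at least 2-fold and it reached 1 CPM in either library. Over all kept cells 9 members reached that level. Of them 2 were higher in 3CK, against 6.96% of the 17523 genes tested, and 2 were lower, against 11.3%. The median log2 ratio of the 9 was -0.05, and that of all genes tested was also -0.05. The members therefore spread widely around an unmoved centre, from -2.22 for MMP10 to 6.25 for MMP7.

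**Figure D1:**
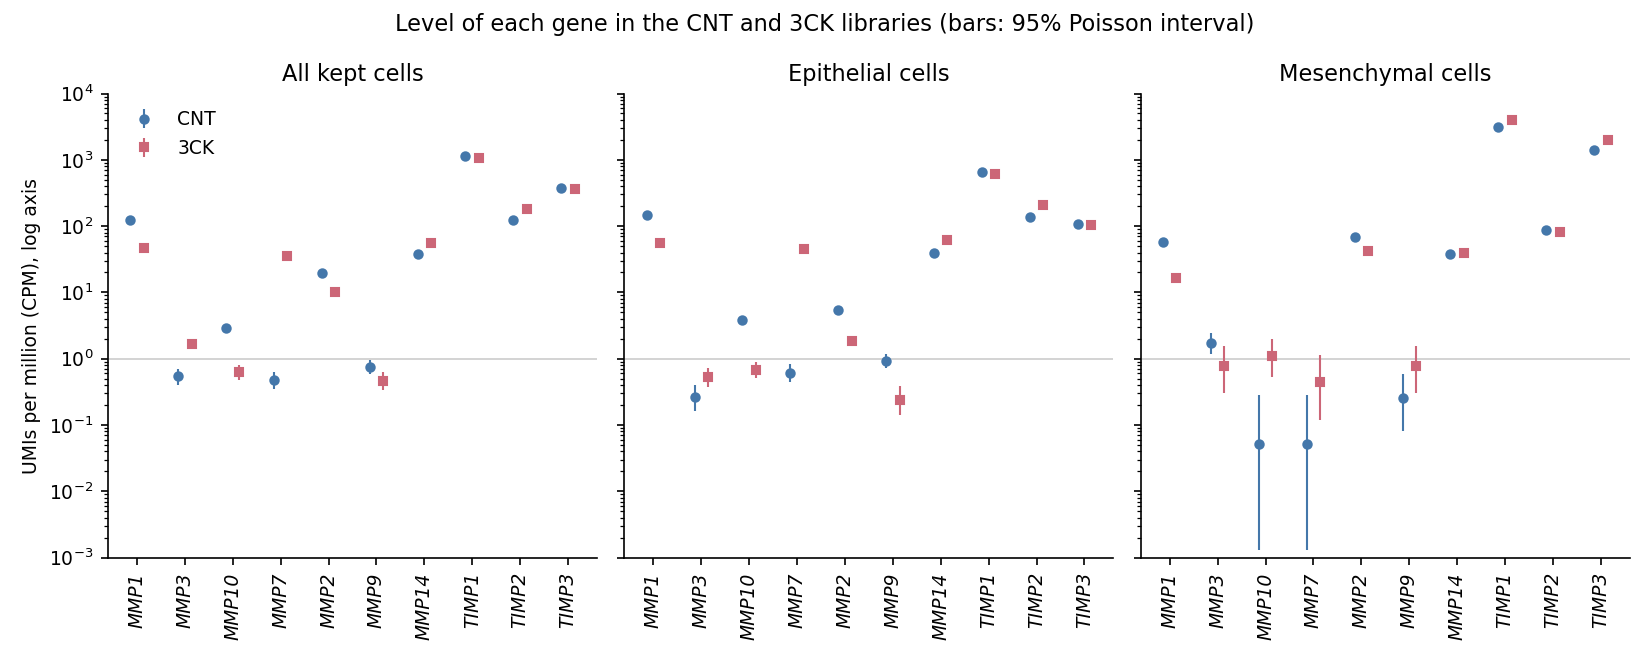
Level of each gene in CPM (log axis) in all kept cells, epithelial cells and mesenchymal cells of the CNT library (circles) and the 3CK library (squares), with 95% Poisson intervals; the line marks 1 CPM. MMP7 goes from 0.471 to 36.0 CPM over all cells, and TIMP1 is the highest of the 10 in every panel.

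The class panels divide the calls. In epithelial cells 8 members reached 1 CPM: MMP7 was the 1 higher (background 8.48%), and MMP1, MMP10 and MMP2 were the 3 lower (background 12.1%). In mesenchymal cells 8 members reached it as well, with MMP10 as the 1 higher (background 6.05%) and MMP1 and MMP3 as the 2 lower (background 16.7%). The MMP10 and MMP3 calls in mesenchymal cells rest on 10 and 7 UMIs in 3CK and are described below. The median log2 ratio of the members tested was -0.08 in epithelial cells, beside 0.01 for all genes tested, and 0.01 in mesenchymal cells, beside -0.21. TMM scaling, which sets the bulk of genes level, would raise every mesenchymal ratio by 0.18 on the log2 scale, and ratios over all cells by 0.09.

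**Figure D2:**
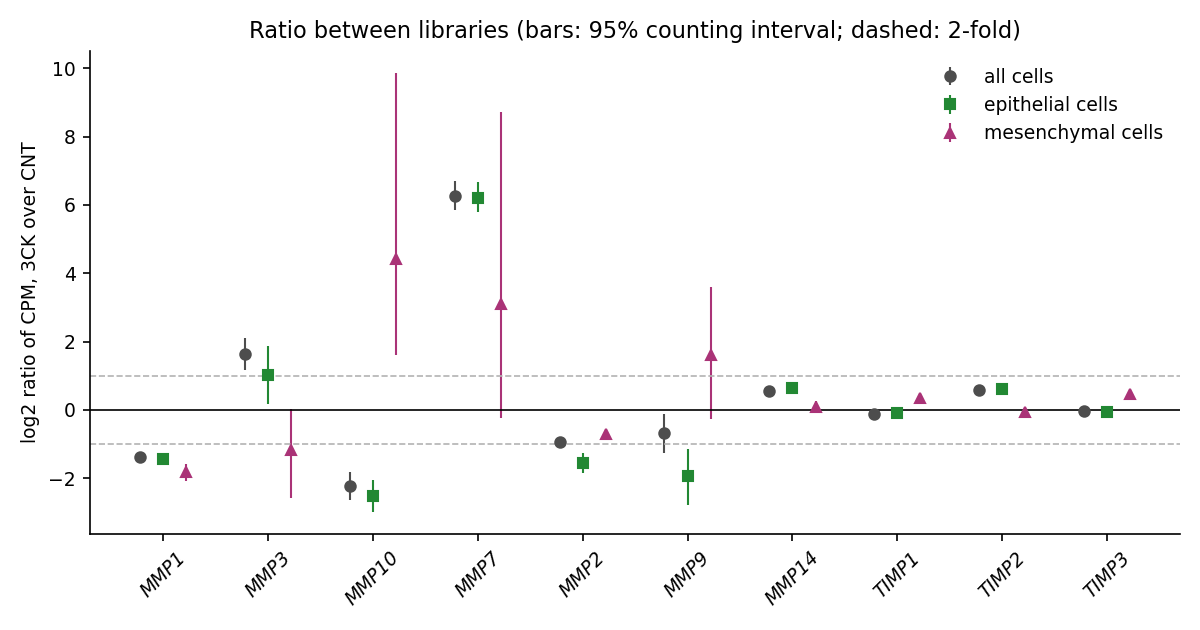
Log2 ratio of CPM, 3CK over CNT, for each gene in all kept cells (circles), epithelial cells (squares) and mesenchymal cells (triangles), with 95% counting intervals and dashed lines at 2-fold. MMP7 stands at 6.25 over all cells and 6.21 in epithelial cells, and the wide mesenchymal intervals of MMP10 and MMP7 rest on 1 UMI each in CNT.

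MMP1, the interstitial collagenase that opens the triple helix of fibrillar collagens, was the most abundant protease of the set in CNT and was lower in 3CK in both classes. It had 12555 UMIs (123 CPM) in CNT and 4316 UMIs (47.0 CPM) in 3CK, with a log2 ratio of -1.39 (-1.44 to -1.34). In epithelial cells it was at 149 CPM in CNT against 55.3 CPM in 3CK, 2.69-fold lower. Mesenchymal cells held 58.2 CPM in CNT against 16.3 CPM in 3CK, with a log2 ratio of -1.83 (-2.09 to -1.59). There 5 of the 574 CNT cells and 3 of the 124 3CK cells held 50% of the UMIs. The cells of neither class went the opposite way, from 66 UMIs to 292 UMIs (log2 ratio 1.07), but 1 of the 258 3CK cells there held 52.4% of those UMIs. Epithelial cells thus carried 90.4% of all MMP1 UMIs in CNT and 89.8% in 3CK.

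MMP1 was unevenly spread over epithelial cells. In CNT 17 cells, the top 1%, held 38.9% of its epithelial UMIs, and 1 cell held 1018 of them. In 3CK the top 1% (11 cells) held 39.5%, and 19 cells held 50% of the total. After each cell was thinned to 5000 UMIs, 25.1% (22.6 to 27.9) of 1062 CNT epithelial cells and 14.4% (12.0 to 17.1) of 776 3CK epithelial cells had an MMP1 UMI, so fewer cells with a UMI went with the lower level. Without thinning the shares were 43.1% and 39.2%, at median depths of 37785 and 72198 UMIs. In mesenchymal cells the thinned shares were 8.44% (5.63 to 12.0) in CNT and 5.61% (2.09 to 11.8) in 3CK, with overlapping intervals. The unthinned mesenchymal shares were 21.4% in CNT and 26.6% in 3CK. Free RNA in the suspension can give a cell UMIs of genes it does not express. TTR was in mesenchymal cells at 2.17% of its epithelial level in CNT and 1.22% in 3CK. MMP1 was there at 39.1% and 29.6% of its own epithelial level. The part of free RNA in the mesenchymal MMP1 values was not tested.

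Across epithelial cells of at least 10000 UMIs (deep cells), ranked by TTR, MMP1 followed a different order in the libraries. The terciles were cut in each library by itself. Epithelial TTR was at 64857 CPM in CNT against 19491 CPM in 3CK, so a tercile need not span the same TTR range in both. In CNT the MMP1 level was 121 CPM in the lowest tercile, 221 CPM in the middle and 106 CPM in the highest. In 3CK it was 31.5, 45.1 and 85.5 CPM, highest where TTR was highest. With 50% of the epithelial MMP1 UMIs in 33 CNT cells and in 19 3CK cells, both orders rest on few cells. Cycling epithelial cells had 30.0 CPM in CNT (17 cells) and 120 CPM in 3CK (19 cells), an order that rests on few cells. TM4SF4 (Pearson r 0.327), the secretory-cell protein disulphide isomerase AGR2 (0.327) and the trefoil peptide TFF1 (0.322) were the genes whose level over 1013 CNT epithelial cells was most like that of MMP1. No gene reached 0.3 for MMP1 among the 730 3CK epithelial cells. TFF1 was still second there (r 0.267), and TM4SF4 and AGR2 were not among the 3 nearest. Cells of 1 library share their depth and background, so these r values are descriptions.

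MMP3 and MMP10 are stromelysins, with broad matrix substrates and a role in activating other MMP zymogens, and they moved apart. MMP10 had 299 UMIs (2.94 CPM) in CNT and 58 UMIs (0.631 CPM) in 3CK, a log2 ratio of -2.22 (-2.65 to -1.81). All but 2 of the CNT UMIs, 99.3% or 297 of them, were in epithelial cells, where the level went from 3.90 to 0.685 CPM (log2 ratio -2.51, -2.98 to -2.07). The share of epithelial cells with an MMP10 UMI after thinning was 1.88% (1.15 to 2.89) in CNT and 0.258% (0.0313 to 0.928) in 3CK. In mesenchymal cells MMP10 had 1 UMI in CNT and 10 in 3CK (log2 ratio 4.43, 1.62 to 9.87), but 9 of the 10 UMIs came from 1 cell, and with the top cell of each library left out no ratio could be formed. This mesenchymal call rests on that cell.

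MMP3 had 55 UMIs (0.540 CPM) in CNT and 153 UMIs (1.67 CPM) in 3CK, 3.08-fold higher (log2 ratio 1.62, 1.17 to 2.10). Only 4 cells in CNT and 3 cells in 3CK held 50% of these UMIs. After thinning to 5000 UMIs, 0.324% (0.105 to 0.754) of all CNT cells and 0.753% (0.325 to 1.48) of all 3CK cells had an MMP3 UMI. At 10000 UMIs the shares were 0.343% and 0.302%. The place of MMP3 among the cells, with classes drawn by collagens, also differed. In CNT 61.8% of its UMIs were in mesenchymal cells, 19 of the 34 in 1 cell, and in 3CK 71.2% were in the cells of neither class, where 8 of 258 cells held 109 UMIs. In mesenchymal cells, as drawn by collagens, it went from 34 UMIs (1.73 CPM) to 7 UMIs (0.768 CPM), with a log2 ratio of -1.17 whose interval, -2.59 to 0.02, includes no difference. That direction turned when mesenchymal cells were drawn instead by PDGFRA, PDGFRB, DCN, LUM, THY1, TWIST1 and PRRX1, without collagens. They then held 33 of the 55 UMIs in CNT (518 cells) and 100 of the 153 in 3CK (164 cells), a log2 ratio of 2.25. Most MMP3 UMIs were thus in mesenchymal cells in both libraries under that definition. Of its genes, LUM, PDGFRA and PRRX1 also differed between the libraries in the class drawn by collagens. Keeping the barcodes scored as doublets also turned the direction, since 1 such 3CK barcode held 48 MMP3 UMIs. Epithelial cells held 20 UMIs in CNT and 37 in 3CK, under 1 CPM in both.

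MMP7, matrilysin, a small MMP without the hemopexin domain that is made by epithelial cells and cuts matrix, cell-surface proteins and defensin precursors, showed the highest ratio of the set. It had 48 UMIs (0.471 CPM) in CNT and 3305 UMIs (36.0 CPM) in 3CK, 76.3-fold higher (57.4 to 104). In epithelial cells it went from 47 UMIs (0.617 CPM) to 3202 UMIs (45.7 CPM), 74.0-fold higher, with a log2 ratio of 6.21 (5.80 to 6.66). The intervals of the libraries were far apart, 0.453 to 0.821 CPM against 44.1 to 47.3 CPM. Epithelial cells held 96.9% of the 3CK UMIs. Mesenchymal cells had 1 UMI in CNT and 4 in 3CK, and other cells had 0 UMIs in CNT and 99 in 3CK, at least 15.7-fold higher against a floor of 3 UMIs in the CNT sum.

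The MMP7 transcripts of 3CK came from a minority of epithelial cells. Only 239 of 1016 (23.5%) had any MMP7 UMI, 10 cells held 50% of the UMIs and the top 1% (11 cells) held 52.2%, with up to 248 UMIs in 1 cell. Leaving out the cell with the most UMIs in each library kept the call. After thinning, 57 of 776 3CK epithelial cells (7.35%, 5.61 to 9.41) and 2 of 1062 CNT epithelial cells (0.188%, 0.0228 to 0.679) had a UMI. In mesenchymal cells, taken as the class that should lack MMP7, 1 of 107 3CK cells (0.935%) had one, at median depths of 75388 UMIs there and 91186.5 in epithelial cells. MMP7 in 3CK mesenchymal cells was at 0.961% of its epithelial CPM, beside 1.22% for TTR, and the part of free RNA was not tested. Over TTR terciles of the 3CK epithelium MMP7 went from 55.9 CPM in the lowest to 51.3 in the middle and 31.5 in the highest. This was the reverse of MMP1 in 3CK, but with 50% of the MMP7 UMIs in 10 cells the order rests on few cells. The acute-phase genes SAA2 (r 0.318) and SAA1 (r 0.311) were the nearest to MMP7 over 730 3CK epithelial cells. MMP7 and MMP1 themselves had an r of -0.015 over the same cells.

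**Figure D3:**
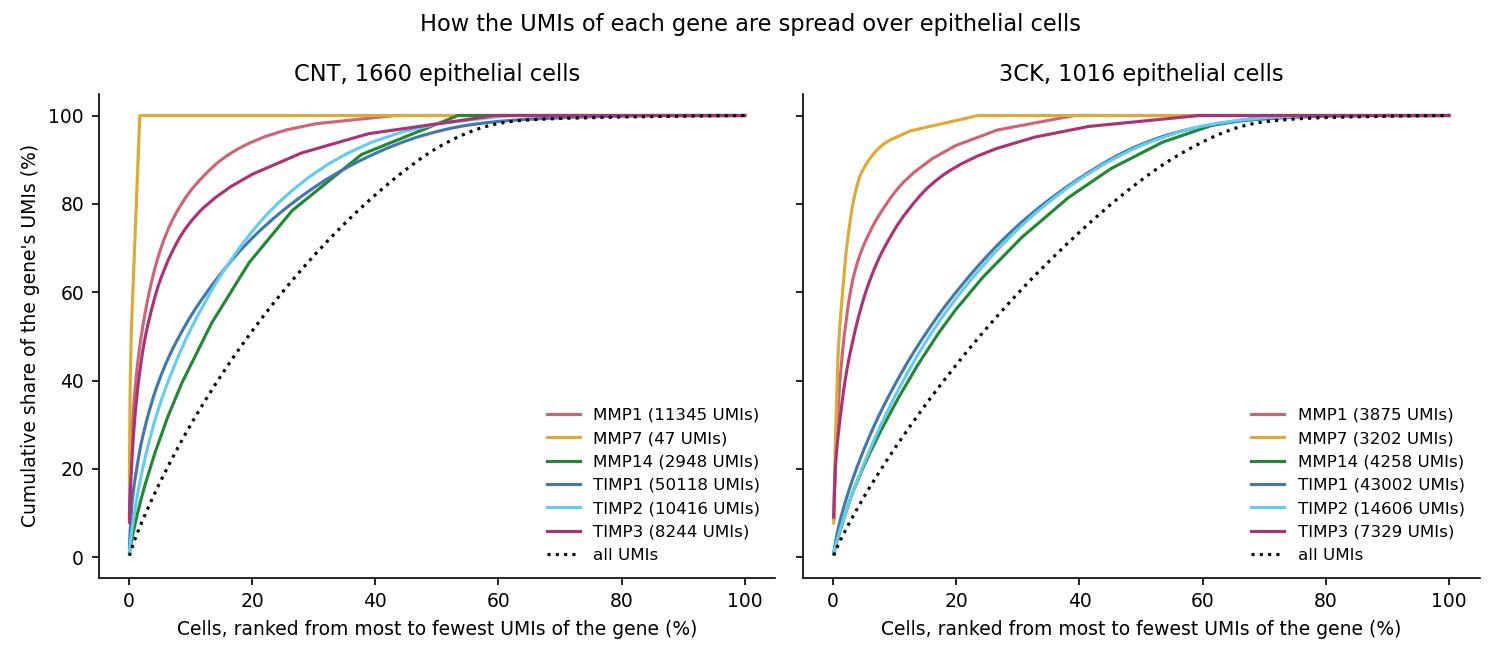
Cumulative share of a gene's UMIs (%) over epithelial cells ranked from most to fewest UMIs of that gene (%), for 6 of the 10 genes in CNT (left, 1660 cells) and 3CK (right, 1016 cells); the dotted line is the same for all UMIs. In 3CK the top 1% of cells hold 52.2% of MMP7 and 39.5% of MMP1 but 5.80% of MMP14.

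The gelatinases MMP2 and MMP9 cut denatured and basement-membrane collagens, MMP2 mainly from stromal cells and MMP9 mainly from leukocytes. MMP2 had 1996 UMIs (19.6 CPM) in CNT and 935 UMIs (10.2 CPM) in 3CK, a log2 ratio of -0.95 (-1.06 to -0.83), just inside 2-fold. It passed 2-fold with each cell given equal weight (-1.02) and with a total that leaves out mitochondrial, ribosomal and the 50 top genes (-1.03). It was a mesenchymal transcript in both libraries, at 69.5 CPM in CNT mesenchymal cells and 42.5 CPM in 3CK, with a log2 ratio of -0.71 (-0.88 to -0.55). Mesenchymal cells held 68.4% of its UMIs in CNT and 41.4% in 3CK, while other cells held 10.6% and 44.5%. These shares depend on the collagen threshold. Mesenchymal cells drawn by the 7 genes without collagens held 1313 of the 1996 MMP2 UMIs in CNT and 571 of the 935 in 3CK. In epithelial cells MMP2 was lower in 3CK, at 1.88 CPM against 5.50 CPM, and the call was lost in epithelial cells with collagens under 5 per 10000 (log2 ratio -0.79). CNT epithelial cells of at least 10000 UMIs with collagens above that threshold had 31.8 CPM of MMP2 (70 cells), and those under it had 2.87 CPM (943 cells). Collagen transcripts moved with MMP2 in the epithelial class, COL1A1 being at 119 CPM in CNT against 13.0 CPM in 3CK, and their part in the MMP2 difference was not tested.

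MMP9 was near the detection limit. It had 77 UMIs (0.756 CPM) in CNT and 43 UMIs (0.468 CPM) in 3CK and so reached the level for a call in no comparison of all, epithelial or mesenchymal cells. Epithelial cells went from 70 to 17 UMIs and the other cells from 2 to 19, while mesenchymal cells had 5 and 7. SLC12A5-AS1, which overlaps MMP9 on the opposite strand, had 53 UMIs in CNT and 60 in 3CK, fewer than MMP9 in CNT and more in 3CK. The 14 leukocyte and macrophage markers summed to 136 CPM in CNT against 244 CPM in 3CK over all cells, most of the difference in S100A9 (38.1 and 99.3 CPM) and CD68 (29.1 and 55.1 CPM), while CD14 (4.07 and 2.59 CPM), CSF1R (3.27 and 1.23 CPM) and CD163 (3.23 and 0.631 CPM) were lower in 3CK. Their defining gene PTPRC was at 0.560 CPM or less in every class except 3CK mesenchymal cells, where it was at 3.62 CPM. In the mesenchymal class the list summed to 76.3 CPM in CNT against 225 CPM in 3CK, in the other cells to 319 and 702 CPM, and C1QB was at 0 in CNT. Their part in the values of the members was not tested.

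MMP14, a membrane-anchored MMP that activates proMMP2 together with TIMP2, was at 37.8 CPM in CNT (3847 UMIs) and 55.4 CPM in 3CK (5089 UMIs), a log2 ratio of 0.55 (0.49 to 0.61). The libraries were further apart in epithelial cells, at 38.7 CPM in CNT against 60.7 CPM in 3CK (log2 ratio 0.65, 0.58 to 0.72), while mesenchymal cells had 37.5 and 39.8 CPM (0.09, -0.10 to 0.27). Whether the classes differed was not tested. MMP14 was the most evenly spread protease. The top 1% of epithelial cells held 7.84% of its UMIs in CNT and 5.80% in 3CK. The per-cell median over deep epithelial cells was 31.9 CPM in CNT against 54.3 CPM in 3CK. The share of epithelial cells with an MMP14 UMI after thinning was 17.6% (15.4 to 20.0) in CNT and 26.5% (23.5 to 29.8) in 3CK.

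**Figure D4:**
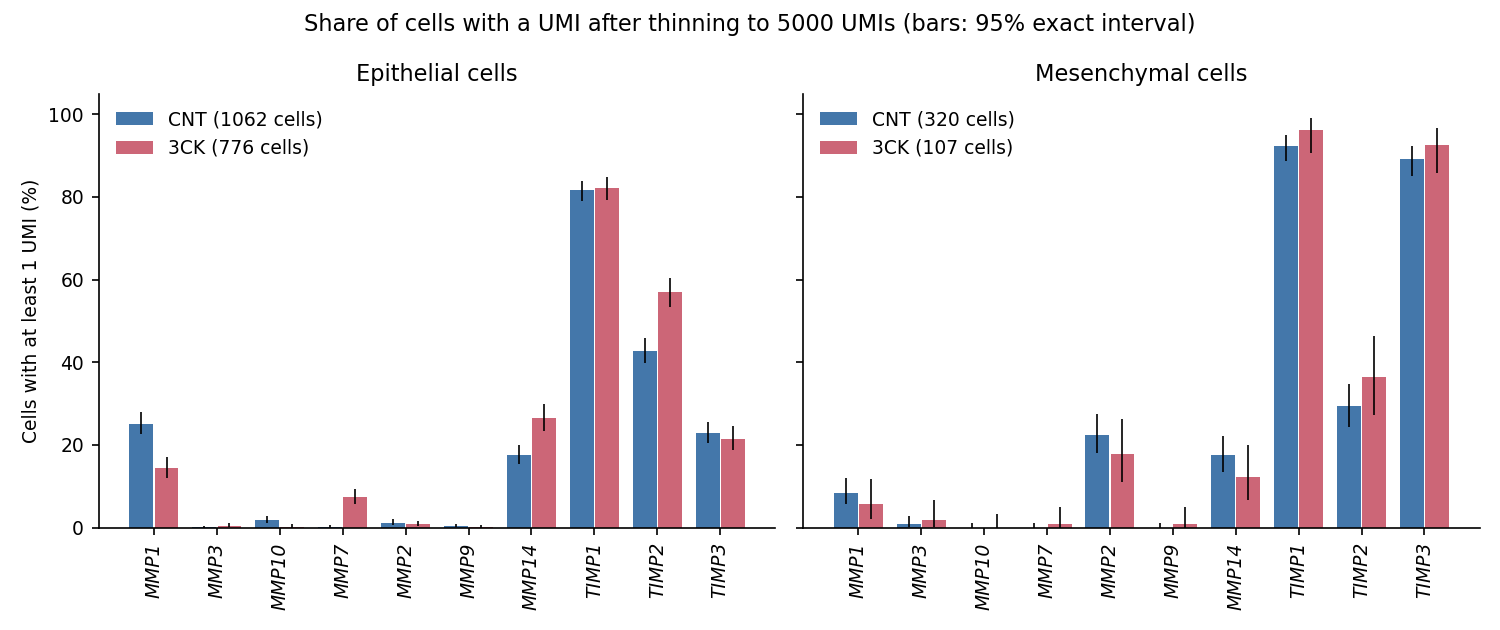
Percent of epithelial cells (left) and mesenchymal cells (right) with at least 1 UMI of each gene after thinning every cell to 5000 UMIs, in CNT and 3CK, with exact 95% binomial intervals. In epithelial cells MMP1 goes from 25.1% to 14.4%, MMP7 from 0.188% to 7.35% and TIMP2 from 42.7% to 57.0%, while TIMP1 stays near 82%.

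The 3 inhibitors stayed within 2-fold over all cells and in both classes. TIMP1, a soluble inhibitor of most secreted MMPs, was at 1143 CPM in CNT (116353 UMIs) and 1050 CPM in 3CK (96497 UMIs), a log2 ratio of -0.12 (-0.13 to -0.11). It had 658 CPM in CNT epithelial cells and 613 CPM in 3CK (-0.10, -0.12 to -0.08), and 3150 CPM in CNT mesenchymal cells and 4017 CPM in 3CK (0.35, 0.33 to 0.37). One mesenchymal 3CK cell held 6825 TIMP1 UMIs, 18.6% of the class, and with the top cell of each library left out the mesenchymal log2 ratio was 0.16. The epithelial sign also turned, to 0.21, in epithelial cells with collagens under 5 per 10000. The per-cell median over deep epithelial cells was 406 CPM in CNT against 482 CPM in 3CK, the opposite order to the summed levels. The top 1% of cells held 18.2% of epithelial TIMP1 in CNT and 8.05% in 3CK. With TIMP1, S100A11 (r 0.523), CLIC1 (0.511) and the tetraspanin CD63 (0.503) were nearest in the 3CK epithelium, and B2M (0.397), CD63 (0.391) and CD59 (0.381) in the CNT epithelium.

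TIMP2, which besides inhibiting MMPs forms the complex of MMP14 with proMMP2, was higher in 3CK within 2-fold, at 123 CPM in CNT (12544 UMIs) and 183 CPM in 3CK (16828 UMIs), a log2 ratio of 0.57 (0.54 to 0.61). In epithelial cells it was at 137 and 208 CPM (0.61, 0.57 to 0.64), and the share of cells with a UMI after thinning was 42.7% (39.8 to 45.8) and 57.0% (53.4 to 60.5). Mesenchymal cells had 86.6 CPM in CNT against 82.8 CPM in 3CK, a log2 ratio of -0.06 (-0.19 to 0.06) that became 0.12 with TMM scaling. MMP14 and TIMP2 thus both had higher epithelial levels in 3CK. Over single cells their r was 0.126 in CNT and 0.099 in 3CK epithelial cells. The highest r of MMP14 with any gene compared there was only 0.212 and 0.214, so a low r cannot show that they are unrelated. The epithelial surface gene CEACAM6 (r 0.382) and TSPAN8 (0.339) were nearest to TIMP2 in the CNT epithelium.

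TIMP3, the matrix-bound inhibitor that also blocks ADAM and ADAMTS proteases, was at 376 CPM in CNT (38274 UMIs) and 364 CPM in 3CK (33458 UMIs), a log2 ratio of -0.05 (-0.07 to -0.02) that became 0.04 with TMM scaling. It was a mesenchymal transcript, at 1414 CPM in CNT mesenchymal cells and 1964 CPM in 3CK (0.47, 0.45 to 0.50). Mesenchymal cells with smooth muscle genes at 10 or more UMIs per 10000 had 1445 CPM in CNT (36 cells) and 3297 CPM in 3CK (21 cells), and the rest had 1418 and 1678 CPM. Epithelial cells had 108 CPM in CNT against 105 CPM in 3CK, and this sign turned to 0.55 in epithelial cells with collagens under 5 per 10000. In CNT, deep epithelial cells above that threshold had 488 CPM of TIMP3 and those under it 67.6 CPM, and in 3CK they had 325 and 99.8 CPM. LGALS1 (r 0.394), COL1A2 (0.348) and H19 (0.338) were nearest to TIMP3 in the CNT epithelium. In 3CK mesenchymal cells (106 cells) CYTOR (0.425) and TPM4 (0.404) were among the nearest.

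Within each library several members differed between the cell classes. In CNT, 4 of the 8 members tested were higher in mesenchymal cells, against 26.1% of the 18033 genes tested, and 2 were higher in epithelial cells, against 15.1%. TIMP3 was 13.1-fold, MMP2 12.6-fold, MMP3 6.59-fold and TIMP1 4.79-fold higher in mesenchymal cells, and MMP10 was 76.6-fold (13.6 to 3036, on 1 mesenchymal UMI) and MMP1 2.56-fold higher in epithelial cells. The MMP3 call rests on 34 mesenchymal UMIs, 19 of them in 1 cell, and it was lost without the top cell (log2 ratio 1.79), with each cell given equal weight (0.42), with collagens of at least 20 per 10000 (1.57) and with a minimum of 10 CPM. In 3CK, 3 were higher in mesenchymal cells (background 19.0% of 17177 genes) and 3 in epithelial cells (background 16.8%). MMP2 was then 22.5-fold, TIMP3 18.8-fold and TIMP1 6.55-fold higher in mesenchymal cells, and MMP7 104-fold, MMP1 3.38-fold and TIMP2 2.52-fold higher in epithelial cells. TMM scaling would lower the mesenchymal over epithelial ratios by 0.39 in CNT and 0.18 in 3CK on the log2 scale, and with it TIMP2 also passed 2-fold in CNT, at -1.05. In CNT epithelial cells MMP2 was at 7.92% and TIMP3 at 7.65% of its mesenchymal level, between COL1A1 (3.97%) and DCN (4.23%) below and LUM (10.1%) above. In 3CK MMP2 was at 4.44% and TIMP3 at 5.32%, beside 1.44% for COL1A1, 0.792% for DCN and 4.94% for LUM. The part of free RNA in these values was not tested.

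Since 3' UMI counts stand for captured molecules and not for bases, levels can be ordered without a length correction, although genes may differ in how well they are captured. Over all CNT cells the order was TIMP1, TIMP3, MMP1, TIMP2, MMP14, MMP2, MMP10, MMP9, MMP3 and MMP7. Neighbours whose intervals overlapped were MMP1 with TIMP2, MMP9 with MMP3 and MMP3 with MMP7. In 3CK the order was TIMP1, TIMP3, TIMP2, MMP14, MMP1, MMP7, MMP2, MMP3, MMP10 and MMP9, with an overlap only between MMP10 and MMP9. MMP7 thus went from last to sixth in rank and MMP1 from the third to the fifth, with MMP14 above it.

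The other genes of the chromosome 11 cluster were low in both libraries. MMP13 had 127 UMIs in CNT and 129 in 3CK, MMP12 had 40 and 25, and MMP20 had 20 and 29. MMP8 and MMP27 had 0 UMIs in CNT and 5 and 1 in 3CK. Of the other MMPs and TIMP4, 10 of 17 genes reached 1 CPM. Of these, 1 was higher in 3CK, against 6.96% of all genes tested, and 4 were lower, against 11.3%. Their median log2 ratio was -0.54, beside -0.05 for all genes tested. The 1 higher was MMP25, a leukocyte-type membrane MMP, at 0.589 CPM in CNT against 13.5 CPM in 3CK (log2 ratio 4.52). Of its UMIs, 54 in CNT and 1098 in 3CK were epithelial. MMP16, a membrane-type MMP, had the lowest ratio (-2.70, from 31.5 to 4.83 CPM), and MMP23B was the most abundant, at 55.8 and 34.4 CPM.

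The lists of interacting genes were mixed in direction as well, and their counts stand beside the same 6.96% higher and 11.3% lower of all genes tested. Among 17 ADAM and ADAMTS proteases tested, 4 were higher and 4 lower (median -0.08), with ADAM28 at 2.51 and ADAMTS5, an aggrecanase, at -2.28, and ADAM9 the most abundant at 147 and 130 CPM. In the plasminogen system, which can activate several MMP zymogens, 3 of 10 were higher and 2 lower (median -0.11). Its urokinase receptor PLAUR was both the most abundant and the highest in ratio, at 47.6 and 271 CPM (log2 ratio 2.51), and the plasmin inhibitor SERPINF2 was the lowest at -1.78. In mesenchymal cells SERPINB2 had the highest ratio of that list (3.71). Of 14 MMP regulators and cofactors, 3 were higher and 3 lower (median -0.23): LCN2, which can bind MMP9, went from 15.1 to 575 CPM (5.25), the matricellular protein THBS2 was the lowest (-2.80), and the MMP inducer BSG was the most abundant at 475 and 406 CPM.

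Matrix substrates of MMPs and the AP-1 and ETS factors were mixed too. Of 12 substrates tested 2 were higher and 5 lower, with a median log2 ratio of -0.91, beside -0.05 for all genes tested, and 5 were within 2-fold. TNC had the highest ratio (2.83, from 1.35 to 9.57 CPM), COL1A1 the lowest (-2.67, from 691 to 109 CPM), and FN1 was the most abundant, at 858 and 734 CPM. Part of this list, the fibrillar collagens, defined the mesenchymal class, which was smaller in 3CK. Within the classes the list had a median of -0.62 in epithelial and -0.61 in mesenchymal cells. All genes tested had 0.01 and -0.21 there. Of 13 AP-1 and ETS factors, families whose sites occur in MMP promoters, 5 were higher, 1 was lower and 7 were within 2-fold (median 0.18). ETS1 had the highest ratio (2.07, from 12.0 to 50.4 CPM), FOSB the lowest (-1.50), and JUND was the most abundant, at 311 and 319 CPM.

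**Figure D5:**
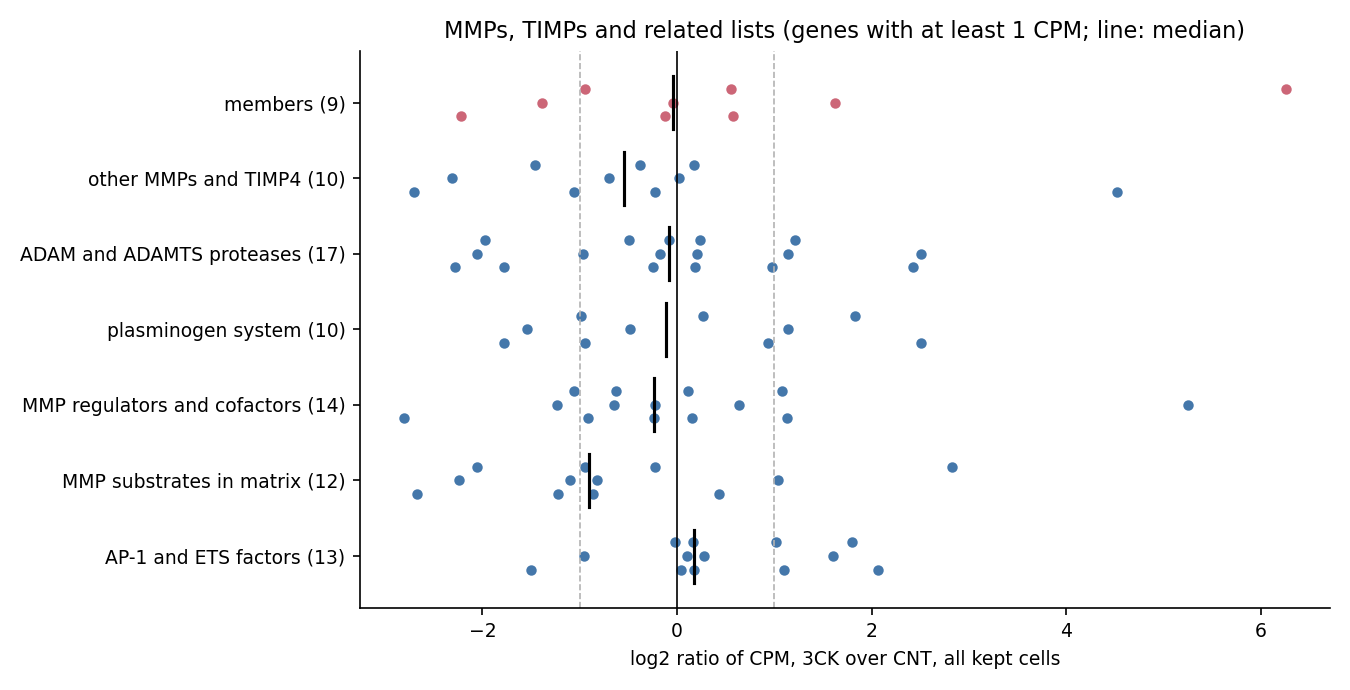
Log2 ratio of CPM, 3CK over CNT, over all kept cells for the members and 6 related lists (points: genes reaching 1 CPM, number in brackets; line: median; dashed: 2-fold). The 9 members range from -2.22 to 6.25 around a median of -0.05, and the substrate list has the lowest median, -0.91.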

How the data were processed

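Single-cell RNA-seq of 2 libraries, 1 untreated (CNT) and 1 cytokine-treated (3CK), was analysed from the deposited matrices, in which the authors recorded raw UMI counts for every barcode. Cell Ranger 7.1.0 and the GRCh38 build are named in the submitters' processing notes. The counting of introns and strand is not given in the sources used here. Differences are between these libraries only.

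Barcodes with at least 500 genes and at most 20% mitochondrial UMIs were kept (scanpy 1.11.5, Python 3.11.15). This removed 412 CNT and 52 3CK barcodes for few genes and 306 and 175 for mitochondrial share alone, and Scrublet scores removed 52 and 16 as doublets (0.8% per 1000 barcodes). UMIs were summed per library and class and divided by the sum of all UMIs (CPM). Log2 ratios carry exact binomial intervals, CPM exact Poisson intervals and shares Clopper-Pearson intervals, all 95%. A sum of 0 was set to a floor of 3 UMIs, worth 0.0295 CPM in CNT against 0.0327 CPM in 3CK over all cells, and no ratio was formed with 3 UMIs or fewer in both. A call was 2-fold with at least 1 CPM in either group. No test was possible with 1 library per group. Shares were taken after thinning cells to 5000 UMIs and leaving out shallower ones, 598 CNT and 240 3CK epithelial cells and 254 and 17 mesenchymal ones. Deep cells are those with at least 10000 UMIs.

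Named genes were all members, the most abundant, highest and lowest gene of each list, and the 3 genes of at least 50 CPM most correlated with a member (r of at least 0.3 over deep cells thinned to 10000 UMIs, log scale). The MMP25 class counts, the chromosome 11 neighbours and the r of TFF1 with MMP1 in 3CK were named after their values were seen. Of the correlated genes, those of MMP1, MMP2, MMP14, TIMP1 and TIMP2 in mesenchymal cells are not listed, and a few values are not reported here. The members and lists were chosen with earlier results of these data known. Alternatives covered barcode filters, doublets, depth, scaling (TMM, edgeR 4.0.16 in R 4.3.3), weighting, minimum level and class definition. The ratio and thinning code was tested on simulated data. Coordinates are from GENCODE on GRCh38.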

Additional observations from a re-analysis of the deposited data

Results flagged for a closer look

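Among the 10 genes, 3 had ratios of opposite sign in the epithelial and mesenchymal classes with both counting intervals excluding 0, and the difference between the classes was not tested, since each class is 1 sum per library. MMP10 had a log2 ratio of 3CK over CNT of -2.51 in epithelial cells and 4.43 in mesenchymal cells, the latter from 1 and 10 UMIs with 9 of the 10 in 1 cell. TIMP1 had -0.10 in epithelial and 0.35 in mesenchymal cells, and 0.16 in mesenchymal cells without the cell holding the most TIMP1. TIMP3 had -0.0500 in epithelial and 0.47 in mesenchymal cells. For TIMP1 and TIMP3 the epithelial sign was positive (0.21 and 0.55) when cells with collagens at 5 or more UMIs per 10000 were left out of the epithelial class, so that both classes then had the same sign.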

How the results depend on the processing

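The ratios were recomputed under 14 other settings, 1 of them, leaving out the cell with the most UMIs of a gene, chosen after seeing the data. Of 656 such member ratios 508 lay within the counting interval of the reported value, 144 outside it and 4 changed the sign of a called value. Of 304 alternatives of called values in which a ratio could be formed, 283 kept the call and 21 lost it. MMP10 in mesenchymal cells is not among these without the top cell or with collagens of at least 20 per 10000. No ratio could be formed there, so the call was lost as well. MMP7 and MMP1 kept their calls over all cells and in epithelial cells under every setting that was run, MMP7 with log2 ratios of 6.17 to 6.46 and MMP1 of -1.47 to -1.17 over all cells. The 4 changes of sign were all of MMP3 in mesenchymal cells, with a log2 ratio of 1.83 without the barcode filter, 1.78 with doublets kept, 0.0139 with collagens of at least 20 per 10000 and 2.25 with mesenchymal cells drawn by 7 genes without collagens. For the last, and for doublets kept, the added cells hold MMP3 UMIs, and for the others the cause was not tested.

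The number of members called over all cells went from 2 higher to 1 with a minimum of 10 CPM, and from 2 lower to 1 with that minimum, to 3 with a total without mitochondrial, ribosomal and 50 top genes and to 4 with each cell given equal weight. In epithelial cells 1 higher became 2 with equal weight or no minimum level, and 3 lower became 1 with a minimum of 10 CPM. In mesenchymal cells 1 higher became 2 with no barcode filter, doublets kept, that reduced total, or the 7 genes. It became 3 with no minimum level and 0 with equal weight, a minimum of 10 CPM, collagens of at least 20 per 10000 or without the top cell. The 2 lower in mesenchymal cells became 1 with no barcode filter, doublets kept, TMM scaling, equal weight, a minimum of 10 CPM, the 7 genes or without the top cell. In CNT the 2 members higher in epithelial than mesenchymal cells became 4 with TMM scaling, the reduced total or no minimum level and 1 with a minimum of 10 CPM. In 3CK the 3 higher in mesenchymal cells became 5 with the 7 genes. Fewer genes tested account for the change with 10 CPM, and more genes tested for that with no minimum level. The change to 0 higher in mesenchymal cells without the top cell was that of MMP10, with 9 of 10 UMIs in 1 cell. Those added in CNT with TMM scaling were TIMP2 (-1.05) and MMP9 (-2.24). The cause of the others was not tested. With each cell given equal weight the TIMP3 ratio over all cells was -0.43. Of 160 shares of cells at another depth, 113 lay outside the interval at 5000 UMIs, in both directions, and the cells compared change with the depth as well. No paired analysis was possible because each group is 1 library, and for the same reason no replicate could be left out. Depth limits MMP3, MMP9, MMP10 and MMP7 in mesenchymal cells, where 3 UMIs are worth 0.153 CPM in CNT against 0.329 CPM in 3CK.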
